A study of Homo sapiens with 4 samples.

Results

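Cells sense cholesterol through a small set of proteins, and the transcripts of 8 of them were followed here: SREBF1, SREBF2, SCAP, INSIG1, INSIG2, STARD4, NPC1 and NPC2. They were chosen by name as genes of the SREBP machinery and of sterol handling inside the cell, and the rule that picked their probes used names only. The choice of genes was made with earlier results of these data known. Every gene probe carrying one of these names was taken, which gave 10 probes on 19 spots of an array that holds 34127 gene probes on 43118 spots for 27274 gene names. Of these names, 27224 had values on all 4 arrays. All 8 genes had a probe well above background on all 4 arrays, and no spot was saturated, so every member was measured and none was lost to a filter.

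SREBF1 and SREBF2 encode the SREBP transcription factors, which are made as precursors bound to the endoplasmic reticulum. SCAP carries the precursor to the Golgi when sterols are scarce, where proteases release the part that enters the nucleus, and INSIG1 and INSIG2 hold SCAP back when sterols are plentiful. SREBP-2 mainly drives genes of cholesterol synthesis and uptake and SREBP-1 mainly those of fatty acid synthesis, and INSIG1, SREBF2 and STARD4 are themselves known SREBP targets. STARD4 is a soluble protein that carries sterols between membranes, and NPC1 and NPC2 export the cholesterol of endocytosed lipoproteins from late endosomes and lysosomes. Statins block the synthesis of mevalonate, the precursor of cholesterol.

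There were 4 groups of 1 array. LNCaP, an androgen-dependent cell line from a human prostate cancer, was measured as an untreated control and after atorvastatin (ATO) at 10 µM for 24 h, and PC3, an androgen-independent prostate cancer line, in the same way. Both lines grew in RPMI medium with serum. Per the labels the controls had no treatment, no vehicle is mentioned, and there was 1 sample per group. The ATO stock was dissolved in DMSO, and whether the array controls received DMSO is not stated. An effect of DMSO therefore cannot be told apart from one of ATO. RNA was measured on 1-colour Agilent arrays, in intensity units of processed signal. Because RNA from whole cultures was labelled, a change in the number of cells that hold a transcript and a change in its amount per cell cannot be told apart.

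With 1 array per group there was no replicate check and no p-value within a line, and precision is limited by how many arrays there were. The error given with a signal is the scanner software's own estimate for a single spot, about 10% of a bright signal, and for NPC1 the SD of its spots. The error of a ratio combines those of its signals, and for NPC1 it is the standard error over spots. These errors cover measurement on the array and not the spread between cultures. Probes repeated on the arrays give a second measure: the log2 ratio of ATO over control had a median SD among spots of 1 probe of 0.11 in LNCaP and 0.12 in PC3. Between 48.5% and 52.9% of an array's gene spots were well above background. Both ATO arrays carried more spots with a bright local background (14.1% in LNCaP ATO and 15.3% in PC3 ATO) than their controls (0.348% and 8.35%), and the SREBF2 spot on the PC3 ATO array was 1 of them. All 11 of 11 marker genes of the lines lay on the side their labels call for, with KLK3 at least 1499-fold higher in LNCaP and CAV1 at least 382-fold higher in PC3.

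The 3 members that were at least 1.5-fold higher after ATO in both lines were SREBF2, INSIG1 and STARD4. The 250 bases before the start of each of these genes are shown because the 3 were higher together in both lines. The sequences were taken from RefSeq on the GRCh38.p14 assembly and are written 5′ to 3′ on the strand of the gene. They lie at chr22:41832855-41833104 on the plus strand, chr7:155297628-155297877 on the plus strand and chr5:111512536-111512785 on the minus strand. Capitals mark matches, on either strand, to the core of a sterol regulatory element (TCACNCCAC, the kind of site SREBPs bind) and to the CCAAT box bound by NF-Y (read as ATTGG on the other strand), and the matches do not overlap.
SREBF2: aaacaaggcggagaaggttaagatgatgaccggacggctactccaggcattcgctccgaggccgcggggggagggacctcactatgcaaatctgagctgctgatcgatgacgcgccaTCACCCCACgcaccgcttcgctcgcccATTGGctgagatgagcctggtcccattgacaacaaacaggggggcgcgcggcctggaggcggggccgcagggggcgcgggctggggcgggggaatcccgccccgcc
INSIG1: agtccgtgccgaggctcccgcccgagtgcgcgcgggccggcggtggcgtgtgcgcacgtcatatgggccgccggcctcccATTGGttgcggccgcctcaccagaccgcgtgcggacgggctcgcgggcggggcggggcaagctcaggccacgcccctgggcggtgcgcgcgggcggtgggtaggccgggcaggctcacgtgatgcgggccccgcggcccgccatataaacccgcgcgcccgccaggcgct
STARD4: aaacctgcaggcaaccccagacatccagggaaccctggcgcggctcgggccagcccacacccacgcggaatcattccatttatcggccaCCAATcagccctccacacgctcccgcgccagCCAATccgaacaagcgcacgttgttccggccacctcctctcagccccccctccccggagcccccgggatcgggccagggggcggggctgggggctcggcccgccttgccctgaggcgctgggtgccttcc

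The SREBF2 window held 1 match to the sterol regulatory element core, at bases -133 to -125 from the start, and 1 CCAAT box at -106 to -102. The INSIG1 window held 1 CCAAT box, at -170 to -166, and the STARD4 window held 2, at -161 to -157 and -130 to -126. RefSeq gave 10 such windows for the 8 members, with 2 each for INSIG2 and NPC2. The sterol regulatory element core was found in 1 of the 10 and the CCAAT box in 4, the fourth being an NPC2 window. Among all 35116 windows of 250 bases in the table, 0.883% held the first motif, 32.01% the second and 0.231% both. A match describes the letters in the window and is not evidence of binding, and the windows without a match say nothing about sites elsewhere.

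The question was how the transcripts of the SREBP machinery responded to ATO in each line. INSIG1 and STARD4 showed the largest log2 ratios among the 8 members in both lines, SREBF2 was higher by a similar amount in each, and NPC1 was higher by less than 1.5-fold. SREBF1, SCAP, INSIG2 and NPC2 stayed within the 1.5-fold limits, and the 2 probes of INSIG2 differed in which line had the higher ratio. Ratios were computed after each array was set to its 75th percentile, which lay between 496.8 and 588.2 units.

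**Figure D1:**
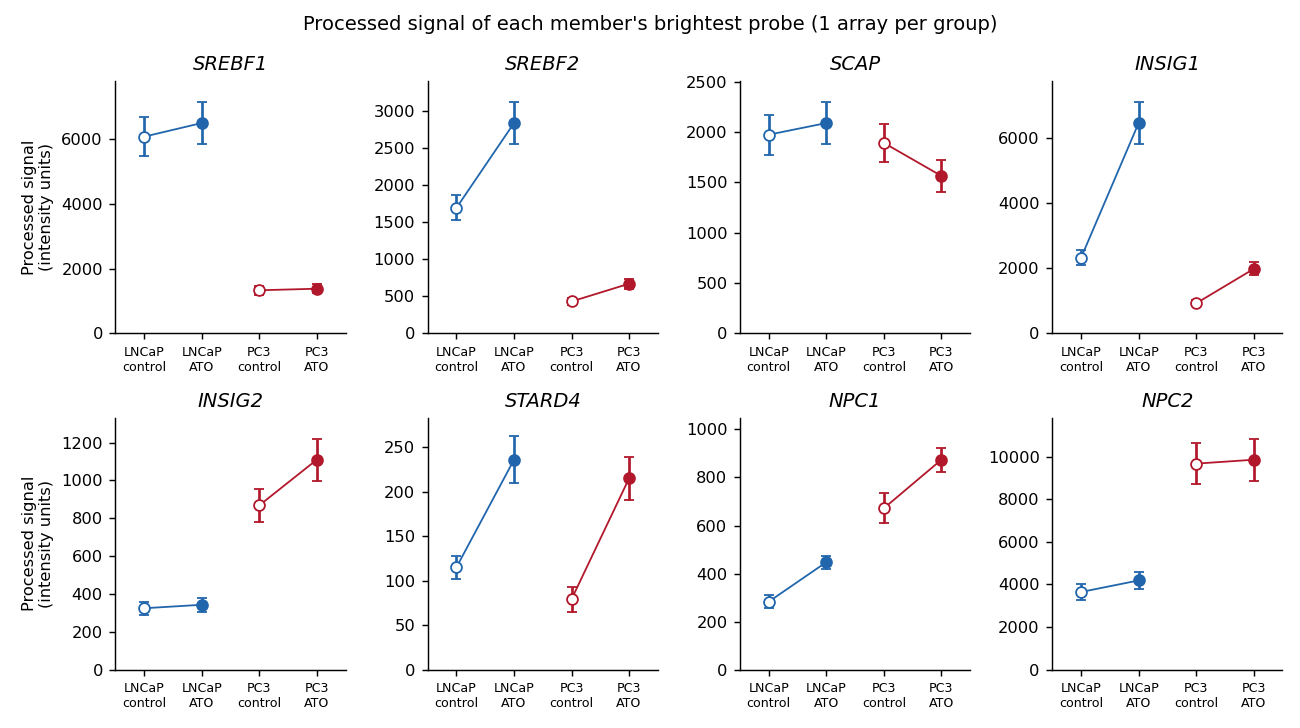
Processed signal in intensity units (linear axes from 0, 1 panel per gene) of the brightest probe of each member on the 4 arrays. Open points are controls and filled points ATO. Bars are the scanner's error estimate or, for NPC1, the SD of its spots. INSIG1, STARD4 and SREBF2 are higher after ATO in both lines, and SREBF1 stays near 6086 to 6508 units in LNCaP and 1325 to 1373 units in PC3.

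Of the transcription factors, SREBF2 (probe on hg18 at chr22:40632145-40632204, plus strand) gave 1695 ± 170 units in LNCaP control against 2842 ± 284 after ATO, and 427 ± 44.2 in PC3 control against 668 ± 67.7 after ATO. The ATO array was the brighter of the pair in each line, and the intervals of 1 error did not overlap. This was 1.56-fold in LNCaP (log2 ratio 0.65 ± 0.20) and 1.62-fold in PC3 (0.69 ± 0.21). Both ratios passed the 1.5-fold limit by less than 1 error. The local background of the PC3 ATO spot was 123 units against a limit of 116.7 for a bright background. SREBF2 therefore had no value when such spots were left out, and the part of the bright background in its ratio was not tested.

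SREBF1 has 2 probes, at chr17:17656144-17656203 and chr17:17656029-17656088 (hg18, minus strand). The brighter read 6086 ± 609 and 6508 ± 651 units in LNCaP control and ATO, and 1325 ± 133 and 1373 ± 138 in PC3 control and ATO. Its signal hardly differed between the arrays of a line, with log2 ratios of -0.00 ± 0.20 and 0.10 ± 0.20. The dimmer probe read 106 ± 12.02 and 97.1 ± 14.9 units in LNCaP and 96.3 ± 14.7 and 108 ± 15.4 in PC3. Its log2 ratios, -0.23 ± 0.27 and 0.21 ± 0.30, were also within 1 error of 0. Neither probe put SREBF1 near the 1.5-fold limit in either line, but the dimmer one lay near the floor and says little about a response. The lowest signal well above background was 27.4 units on LNCaP control and 52.1 to 54.7 units on the other arrays.

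SCAP, the escort of the SREBP precursors (chr3:47430478-47430537, hg18, minus strand), read 1975 ± 198 and 2091 ± 209 units in LNCaP control and ATO, and 1893 ± 190 and 1565 ± 157 in PC3. The log2 ratios were -0.02 ± 0.20 and -0.23 ± 0.20. In PC3 the ATO array was the lower one, by little more than 1 error.

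INSIG1, which retains SCAP in the endoplasmic reticulum, was read by 1 probe at chr7:154732777-154732836 (hg18, plus strand). It gave 2317 ± 232 units in LNCaP control against 6460 ± 646 after ATO, and 913 ± 92.0 in PC3 control against 1973 ± 198 after ATO. The ATO arrays lay far above their controls in both lines, by 2.60-fold in LNCaP (log2 ratio 1.38 ± 0.20) and 2.23-fold in PC3 (1.16 ± 0.20). Among the genes measured on both arrays of a line, INSIG1 had the 15th highest ratio of 12236 in LNCaP and the 144th of 12513 in PC3. Its only spot lay in the lower part of the array, where 4.90% of single-spot probes measured on both LNCaP arrays passed 1.5-fold, against 1.202% in the upper part (16.2% and 13.5% in PC3). Its local background was not bright on any array, and the part of array position in its ratio was not tested.

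INSIG2, the second SCAP-retaining protein, has 2 probes with the same orientation, at chr2:118581175-118581234 and chr2:118583434-118583493 (hg18, plus strand). The brighter read 325 ± 33.2 and 343 ± 36.6 units in LNCaP control and ATO, and 868 ± 87.7 and 1110 ± 112 in PC3. This gave log2 ratios of -0.02 ± 0.21 for LNCaP and 0.40 ± 0.21 for PC3. The second probe read 176 ± 18.7 and 242 ± 27.0 units in LNCaP, and 404 ± 41.8 and 418 ± 43.7 in PC3. Its log2 ratios ran the other way round, 0.36 ± 0.22 in LNCaP and 0.10 ± 0.21 in PC3, so which line had the higher INSIG2 ratio depended on the probe. The first probe lay in the upper and the second in the lower part of the array.

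Of the transport proteins, STARD4 (chr5:110862587-110862646, hg18, minus strand) read 115 ± 12.9 units in LNCaP control against 236 ± 26.2 after ATO, and 79.3 ± 14.01 in PC3 control against 215 ± 24.4 after ATO. Both ATO arrays lay above both controls, beyond the errors. The difference was 1.91-fold in LNCaP (log2 ratio 0.93 ± 0.23) and 2.81-fold in PC3 (1.49 ± 0.30), and STARD4 ranked 63rd from the top in each line. These signals were dim, and the error of the PC3 control was the widest of the 4 in proportion.

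NPC1, the membrane protein that moves cholesterol out of late endosomes, was the only member with repeated spots: 10 spots of 1 probe, which the array design places at chr18:19366216-19367345 (hg18, minus strand), a span of 1130 bases for a probe of 60. The spots ranged from 238 to 325 units in LNCaP control (median 290) and from 413 to 505 in LNCaP ATO (median 447, 9 spots after 1 outlier was left out). In PC3 they ranged from 606 to 827 units in the control (median 676) and from 778 to 969 after ATO (median 885). With the outlier left out, the spots of the 2 LNCaP arrays did not overlap. The outlier read 219 units, below every LNCaP control spot, and its log2 ratio was -0.50. With outlier spots kept, the NPC1 log2 ratio in LNCaP was 0.45. In PC3 the highest control spot lay above the lowest ATO spot. Position by position, the log2 ratio was above 0 at each of the 9 spots kept in LNCaP (0.40 to 0.84) and each of the 10 in PC3 (0.17 to 0.61). The mean was 1.47-fold in LNCaP (log2 ratio 0.56 ± 0.05, standard error over spots) and 1.34-fold in PC3 (0.43 ± 0.05). Some NPC1 spots lay in bright local background, 3 on LNCaP ATO and 2 on each PC3 array, and without these positions the log2 ratios were 0.57 in LNCaP and 0.40 in PC3. The spots share 1 RNA sample per array and are not replicates of the treatment. All 10 lay in the lower part of the array. There 4.90% of single-spot probes measured on both LNCaP arrays passed 1.5-fold, against 1.202% in the upper part (16.2% and 13.5% in PC3). The part of array position in the NPC1 ratio was not tested.

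**Figure D2:**
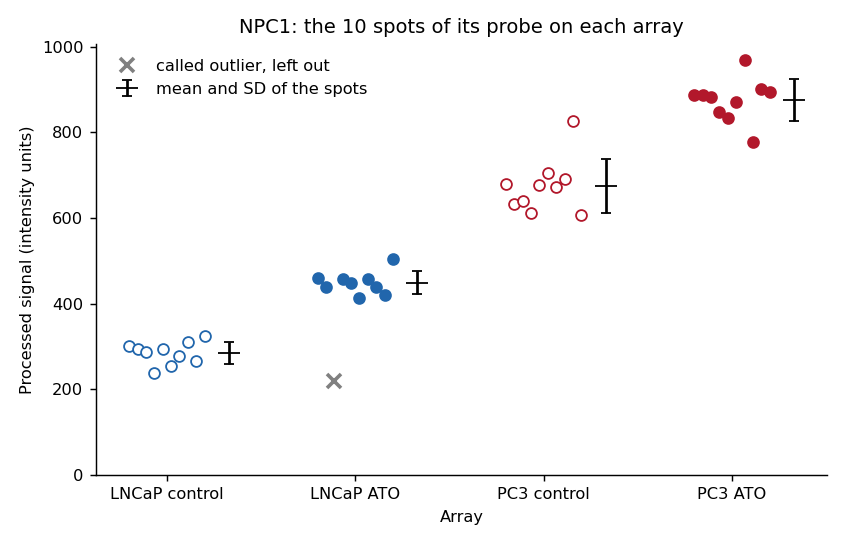
Processed signal (intensity units, axis from 0) of the 10 NPC1 spots on each of the 4 arrays, with the mean and SD of the spots in black. Open points are controls, filled points ATO, and the cross is the outlier spot left out of the LNCaP ATO array. The cross lies at 219 units, below the LNCaP control spots (238 to 325). The other LNCaP ATO spots (413 to 505) all lie above these, and the PC3 ranges overlap.

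NPC2, the soluble partner of NPC1 in the lysosome (chr14:74016507-74016566, hg18, minus strand), read 3646 ± 365 and 4189 ± 419 units in LNCaP control and ATO, and 9668 ± 967 and 9851 ± 985 in PC3. Its log2 ratios of 0.10 ± 0.20 and 0.08 ± 0.20 were within 1 error of 0. No hg18 genome or exon annotation was used here, so the exon or UTR in which each probe lies is not stated.

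**Figure D3:**
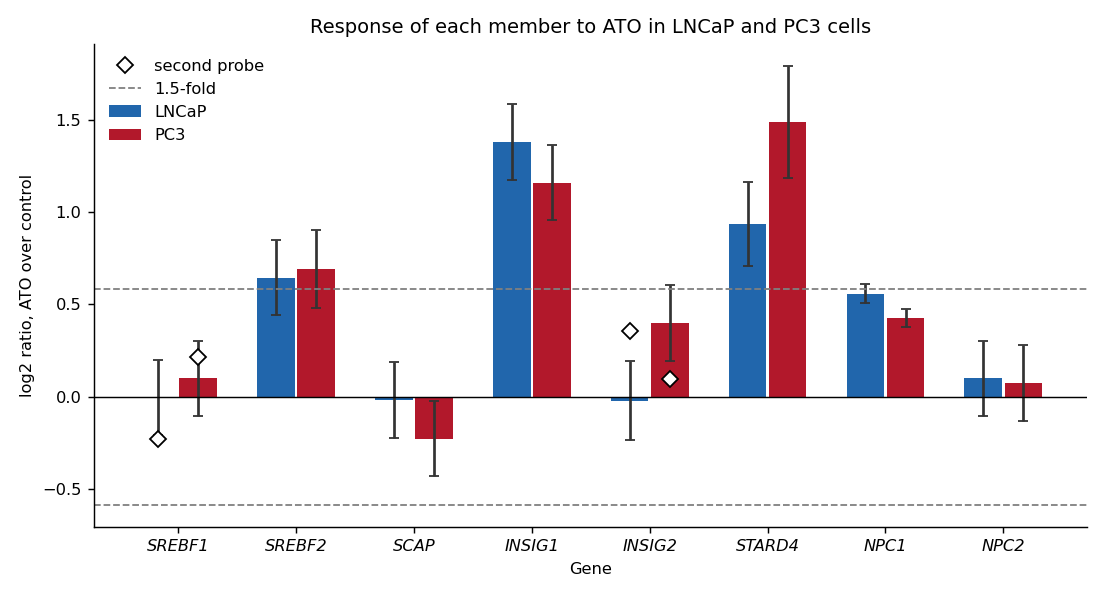
The log2 ratio of ATO over control for the 8 members in LNCaP (blue) and PC3 (red), with 1 array per group. Bars start at 0, and error bars are the technical error of the ratio, for NPC1 the standard error over spots. Diamonds are the second probes of SREBF1 and INSIG2, and dashed lines mark 1.5-fold. SREBF2, INSIG1 and STARD4 pass the upper line in both lines. NPC1 ends just below it in LNCaP (0.56) and further below in PC3 (0.43).

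Counted at 1.5-fold, 3 of the 8 members (37.5%) were higher after ATO in LNCaP and 0 lower. Over all 13739 genes tested in LNCaP, 4.75% passed in either direction, 2.77% higher and 1.99% lower. In PC3, 3 of 8 members were again higher and 0 lower, where 18.5% of 13815 genes passed, 8.2% higher and 10.3% lower. SREBF2, INSIG1 and STARD4 passed in both lines, which 0.359% of 11991 genes did. Because the members were chosen with earlier results of these data known, these shares describe them and are not a test. The median log2 ratio of the members was 0.33 in LNCaP and 0.41 in PC3, against 0 and -0.01 over all genes. The members nearest to the limit were SREBF2 above it and NPC1 below it. NPC1 was just below in LNCaP (log2 ratio 0.56) and further below in PC3 (0.43). With arrays set to their 50th percentile, NPC1 and INSIG2 also passed in PC3, at log2 ratios of 0.62 and 0.60.

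The ATO effect was also fitted across both cell lines with limma, line being a block, which left 1 residual degree of freedom. The residual of a gene is the difference in its response between the lines, and limma draws its variance toward that of all genes. The SE and p given here therefore do not measure the spread between cultures. The fit called 0 of 11902 genes at an adjusted p under 0.05 (0%, smallest 0.762), and 532 genes (4.47%) had an unadjusted p under 0.05. The mean log2 ratio over the lines was 1.27 for INSIG1 (SE 0.14), 1.21 for STARD4 (SE 0.19), 0.67 for SREBF2 (SE 0.13) and 0.49 for NPC1 (SE 0.13), each higher in both lines. The adjusted p from limma was 0.762 for each of these 4, which were the members under 0.05 before adjustment. The adjusted p was 0.777 for INSIG2, 0.813 for SCAP, 0.853 for NPC2 and 0.923 for SREBF1. A p that misses the threshold does not show that these genes were unaffected.

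The lines were then compared in how far each member moved. The difference of the log2 ratios, PC3 minus LNCaP, was 0.05 ± 0.29 for SREBF2, -0.22 ± 0.29 for INSIG1 and -0.13 ± 0.07 for NPC1. For STARD4 it was 0.55 ± 0.38, the larger ratio being that of PC3. It was 0.42 ± 0.30 for the brighter INSIG2 probe and -0.26 ± 0.31 for the second, so these probes gave opposite signs. For SREBF1, SCAP and NPC2 it was 0.10, -0.21 and -0.02, each with an error of 0.29. No probe differed between the lines by as much as 2 errors, and with 1 array per group the difference itself could not be tested. The NPC1 error was the standard error over its spots, a measure unlike the single-spot errors of the others.

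The untreated lines differed more than the treatment moved most members. SREBF1, SREBF2 and INSIG1 were higher in LNCaP, and INSIG2, NPC1 and NPC2 in PC3, each at least 2-fold, while SCAP and STARD4 were higher in LNCaP by less. Each gene was set only against itself. SREBF1 was 5.44-fold higher in LNCaP (log2 difference of PC3 minus LNCaP -2.44 ± 0.20), SREBF2 4.70-fold (-2.23 ± 0.21) and INSIG1 3.005-fold (-1.59 ± 0.20). STARD4 was 1.72-fold higher in LNCaP (-0.78 ± 0.30) and SCAP 1.24-fold (-0.30 ± 0.20). In the other direction, INSIG2 was 2.26-fold higher in PC3 (1.17 ± 0.21), NPC2 2.24-fold (1.16 ± 0.20) and NPC1 2.003-fold (1.002 ± 0.06, standard error over spots).

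So 6 of the 8 members (75%) passed 2-fold, 3 on each side, where 39.6% of 15237 genes did, 20.6% on the PC3 side and 19% on that of LNCaP. The second SREBF1 probe put the difference at only -0.38 ± 0.27 (1.30-fold), so the size for SREBF1 rests on its brighter probe. The second INSIG2 probe gave 0.96 ± 0.21 (1.94-fold), close to the first. NPC1 sat on the limit, and 6 of 8 alternative settings put it below. The even split depended on the scaling: with arrays set to their 50th percentile, INSIG2 (0.73), NPC2 (0.72) and NPC1 (0.56) all fell short of 2-fold and STARD4 passed (-1.23), which left 4 members higher in LNCaP and 0 in PC3. After ATO, INSIG1 in PC3 read 1973 ± 198 units against 2317 ± 232 in untreated LNCaP, and these intervals of 1 error overlapped. SREBF2 in PC3 (668 ± 67.7 units) was below untreated LNCaP (1695 ± 170 units). STARD4 in PC3 went from below the LNCaP control (79.3 against 115 units) to above it (215 units). These units were not scaled between arrays. With each array set to its 75th percentile, the log2 value of INSIG1 was 1.79 in PC3 ATO and 2.22 in LNCaP control. For SREBF2 these values were 0.23 and 1.77, and for STARD4 -1.40 and -2.11.

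**Figure D4:**
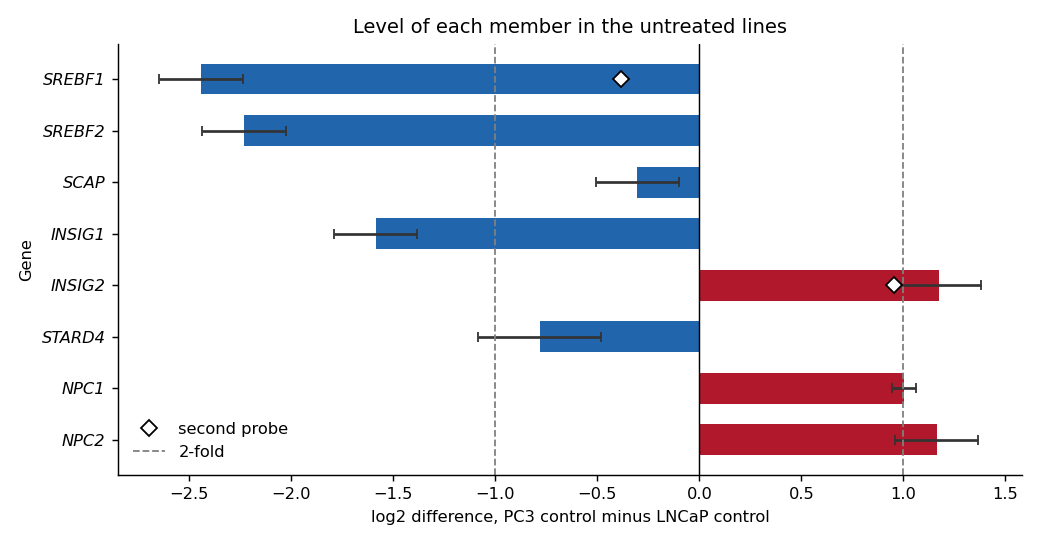
The log2 difference of PC3 control minus LNCaP control for the 8 members, with the technical error of each difference and 1 array per line. For NPC1 the error is the standard error over spots. Blue bars are higher in LNCaP, red bars higher in PC3, diamonds are second probes, and dashed lines mark 2-fold. SREBF1 (-2.44), SREBF2 (-2.23) and INSIG1 (-1.59) lie far to the left, and INSIG2, NPC1 and NPC2 lie close to 2-fold on the right.

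Other genes of the pathway were described by 5 lists, also chosen with earlier results of these data known. The list of SREBP processing and INSIG turnover holds the Golgi proteases and the ubiquitin ligases and their cofactors that degrade INSIG proteins. It also holds genes with other roles, HSP90AB1 among them. Of its 14 genes with a value, 0 passed 1.5-fold in LNCaP and 1 in PC3, with medians of 0.00 and -0.07, where 4.75% and 18.5% of all genes passed. The exception was VCP, the ATPase that pulls ubiquitylated proteins from the membrane, at a log2 ratio of 0.99 in PC3 (4901 to 9386 units) and 0.07 in LNCaP. MBTPS2, the protease that makes the second cleavage of SREBPs, was at -0.19 in LNCaP and -0.41 in PC3. RNF139, a ligase of the endoplasmic reticulum, was at 0.31 in PC3, and UBE2G2, a ubiquitin-conjugating enzyme, at -0.44. In LNCaP the largest were AUP1 (-0.21), HSP90AB1 (-0.20) and NPLOC4 (0.20).

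The enzymes of sterol synthesis, the classical SREBP-2 targets, were mostly higher after ATO. In LNCaP 14 of 21 genes with a value passed 1.5-fold upward and 0 downward, all 21 lay above 0 and the median was 0.71, where 2.77% of all genes passed upward. In PC3 10 of 22 passed upward and 0 downward, 20 lay above 0 and the median was 0.52, where 8.2% of all genes passed upward. HMGCS1, which makes HMG-CoA, was 3.64-fold higher in LNCaP (2485 to 9690 units) and 1.54-fold in PC3 (1647 to 2453 units). SC4MOL, a sterol methyl oxidase, was 2.82-fold higher in LNCaP and 2.20-fold in PC3, over 10 spots. SQLE, the squalene epoxidase, was 2.24-fold and 1.79-fold higher. MVD, a decarboxylase of the mevalonate pathway, was 2.01-fold and 1.83-fold higher, and FDFT1, the squalene synthase, 1.91-fold and 1.94-fold.

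Fatty acid genes, the usual SREBP-1 targets, lay above 0 in 11 of 12 cases in each line. In LNCaP 2 passed 1.5-fold, LPIN1 (2.15-fold, a phosphatidate phosphatase) and ACSS2 (1.54-fold, an acetyl-CoA synthetase), with a median of 0.38, where 2.77% of all genes passed upward. ELOVL6 (0.52, a fatty acid elongase) and SCD (0.50, the stearoyl-CoA desaturase) were just below in log2 ratio. In PC3 4 passed, ACSS2 (1.86-fold), LPIN1 (1.62-fold), FADS2 (1.53-fold, a desaturase) and SCD (1.51-fold), with a median of 0.17, where 8.2% of all genes passed upward. SREBF1 itself was at -0.00 and 0.10 beside them.

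The list of other genes of endosomal and intracellular sterol transport passed 1.5-fold about as often as all genes did (4.75% in LNCaP and 18.5% in PC3). In LNCaP 1 of 21 passed, the oxysterol-binding relative OSBPL8 (log2 ratio 0.66), followed by OSBPL2 (0.40), OSBPL5 (0.29) and OSBPL9 (0.28), with a median of 0.12. In PC3 2 of 23 passed upward, OSBPL2 (1.14) and OSBPL9 (0.69), and 2 downward, TMEM97 (-0.68, a membrane protein that binds NPC1) and STARD6 (at least 1.73-fold lower, not well above background after ATO). OSBP, the founding member of the family, was at 0.40 in PC3, and the median was 0.08. OSBPL8 was at -0.33 in PC3 and OSBPL5 at 0.07.

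In the list of the lipoprotein receptor route, which holds adaptor and clathrin subunits and related receptors, 0 of 14 genes passed 1.5-fold in LNCaP, where 4.75% of all genes did. MYLIP, a ligase that degrades lipoprotein receptors, was at -0.41, SCARB1 (a scavenger receptor) at 0.26, VLDLR at 0.19 and LRPAP1 at -0.19, and the median was 0.03. The PC3 log2 ratios were -0.43 for MYLIP, -0.55 for SCARB1 and -0.20 for LRPAP1, and VLDLR had no value there. In PC3 1 of 15 passed upward, LRP1 (0.93, a large lipoprotein receptor), and 2 downward, among them the clathrin light chain CLTB (-0.69), a share near the 18.5% of all PC3 genes. DAB2, an endocytic adaptor, was at 0.56, and the median was -0.04.

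**Figure D5:**
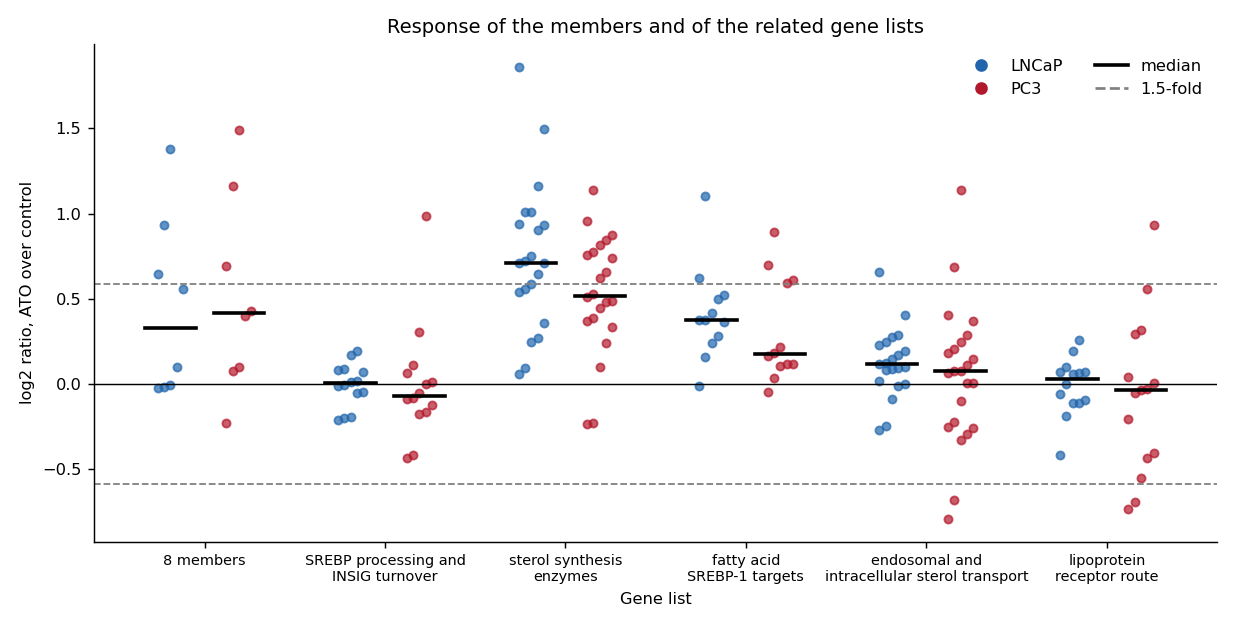
The log2 ratio of ATO over control for the 8 members and for each gene of the 5 lists with a value, in LNCaP (blue) and PC3 (red), with black lines at the medians and dashed lines at 1.5-fold. The lowest PC3 point of the sterol transport list, STARD6, is a bound. Sterol synthesis enzymes lie highest (medians 0.71 and 0.52), and SREBP processing genes lie around 0 (medians 0.00 and -0.07).

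Finally, the genes whose pattern over the 4 arrays was nearest to that of INSIG1 and of STARD4 were listed, among 11008 genes well above background on all 4. Likeness was the root mean square difference of log2 values centred on each gene's own mean, and with 4 arrays it is a description only. The 3 nearest to INSIG1 were the sterol synthesis genes HMGCS1 (0.28), SC4MOL (0.30) and IDI1 (0.32). The 3 nearest to STARD4 were HMOX1 (0.22), OSBPL2 (0.22) and C10orf110 (0.23). HMOX1, the haem oxygenase, had log2 ratios of 0.52 in LNCaP and 1.08 in PC3, and C10orf110 had 0.59 and 0.97.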

How the data were processed

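Gene expression was measured in LNCaP and PC3 cells, untreated or exposed to ATO, with 1 array per group. The authors' scanner files, made with Agilent Feature Extraction 9.5.3.1, hold the intensity of each spot on a linear scale, background-subtracted and detrended per the file headers, with error estimates and calls for outlier spots and spots well above background. The authors also deposited a table holding a ratio per probe. That ratio equalled processed intensity divided by the array's 75th percentile, within 2%, for 99.4% to 99.95% of values above 1 and has a lowest value of 0.03. Its direction is that of the signal and genes were not centred.

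Outlier spots were left out, log2 intensities of repeated spots were averaged, and each array's 75th percentile was subtracted. The brightest probe stood for its gene, with second probes shown beside it. Genes were counted if well above background on either compared array, at 1.5-fold (ATO against control) or 2-fold (controls). A gene well above background on 1 array only was given a bound, the brighter value over the higher of its own dim value and the lowest value well above background. Treatment over both lines was tested with limma 3.58.1 (R 4.3.3, two-sided, Benjamini-Hochberg over all genes tested). The fit was also run on simulated data with the same effects in both lines, which says nothing about lines that respond differently. Alternatives were other scalings (50th percentile, quantile, spike-in probes, the deposited ratio), normexp (offset 50), outlier spots kept and the median over probes. Others were no spots of bright local background, no filter on dim probes, a 2-fold threshold and an intensity trend in limma. A local background was bright when over 3 median absolute deviations above the median, each scaled to the SD of a normal distribution. Precision was limited by the number of arrays, 1 per group.

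The members and lists were chosen with earlier results of these data known. Named genes were all members, up to 4 genes per list and line with the largest measured log2 ratio, all genes of a list past 1.5-fold where these were 5 or fewer, and the 3 genes nearest in pattern to INSIG1 and STARD4. A gene that this rule names is not reported here. All 8 names and 10 probe accessions matched RefSeq (GRCh38.p14). Probe positions are those of the files (hg18), and promoter sequences are from RefSeq. No vehicle is named for the controls, and no batch could be told apart from group with 1 array each.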

Additional observations from a re-analysis of the deposited data

How the results depend on the processing

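With 1 array per group no replicate could be left out, and the errors given are technical only. The count of members past 1.5-fold was 3 in each line, and it was 5 in PC3 with the 50th percentile, 2 in each line without bright local background (where SREBF2 had no value in any comparison), and 1 in LNCaP and 2 in PC3 at a 2-fold threshold. It was 3 under all the other settings tried. The count over all genes, 653 in LNCaP and 2552 in PC3, became 11684 and 4955 without a filter on dim probes, 329 and 841 at 2-fold, and 298 and 1471 without bright local background. In LNCaP it was 354 with normexp and 1122 with the median over probes. limma called 5 genes with the 50th percentile, none of them a member, and 0 under the other settings. The members' adjusted p ranged from 0.150 (INSIG1) to 0.991 (SREBF1) over the settings. The 50th percentile moved the median of genes measured on all 4 arrays from 0.01 to 0.20 in PC3 and from -0.15 to -0.59 between the controls, and spike-in scaling moved the latter to 0.08. With the 50th percentile, 70.3% of PC3 calls were higher after ATO against 44.4%, and 32.3% of control calls were higher in PC3 against 52.0%, or 63.2% with spike-in scaling. Of the control differences, 4 to 6 members passed 2-fold, and with the 50th percentile the 3 on each side became 4 higher in LNCaP and 0 in PC3. No member past a threshold changed direction. Among the others, SREBF1 turned to 0.02 in LNCaP with quantile scaling, INSIG2 to 0.17 in LNCaP with the median over probes and NPC2 to -0.06 in PC3 with normexp. The lowest log2 ratios of STARD4, with normexp, were 0.65 in LNCaP and 0.98 in PC3. The causes were not tested.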
